A study of Mus musculus with 8 samples.

Results

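Distal intergenic peaks outside repeats are the ERRα ChIP-seq intervals that lie far from any annotated gene start and are not annotated to a repeat. They were taken from 4 ERRα ChIP-seq peak lists as the peaks that the deposited annotation calls intergenic, whose centre is more than 50000 bp from the nearest transcription start site (TSS), and whose detailed annotation names no repeat. Of 126927 peaks in all, 11236 met these conditions. They were 2178 of 25427 peaks in WT muscle, 4813 of 50647 in the muscle of ERRα 3SA mice, 1880 of 21813 in WT liver and 2365 of 29040 in the liver of ERRα 3SA mice. Wherever 4 values follow each other below without further labels, they stand for these lists in this order.

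The peak lists came from skeletal muscle (gastrocnemius and soleus) and liver of male WT and ERRα 3SA mice aged 2 to 3 months on the C57BL/6N strain. ERRα 3SA mice carry mutations at a set of serine phosphorylation sites in the amino-terminal part of ERRα, and the study asked how this alters the contact of ERRα with chromatin. Each ChIP pooled the muscle of 5 mice or the liver of 2 mice of a genotype, all killed at zeitgeber time 9 by the study's account, and 3 ChIP preparations per library by the labels. There is 1 list per genotype and tissue, so the animals cannot be told apart, no spread between mice or libraries is known, and no test between genotypes was possible. The intervals in brackets are 95% Wilson intervals, derived for a ratio of peak numbers from the fraction that either list contributes to the total, which cover counting error only, and a difference between lists compares those libraries. Input DNA served as the control for peak calling and the input libraries were not analysed here. As whole tissues were used, ERRα contacts in different cell types of a tissue cannot be told apart.

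ERRα is an orphan nuclear receptor that activates genes of mitochondrial respiration and fat oxidation together with its coactivator PGC-1α, and it is most active in tissues with high energy demand such as heart, oxidative muscle and liver. It binds DNA at the ERR response element (ERRE), TCAAGGTCA, which is the nuclear receptor core AGGTCA preceded by 3 further bases. Nuclear receptors bind to promoters and also to enhancers far from genes, which can act on a promoter over long distances through looping of the chromatin, so the nearest gene named for a distal peak is not necessarily the gene it acts on.

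The elements are shown first at loci where they lie under high-scoring members. All sequences are reference sequence of GRCm38 (mm10) and are written 5′ to 3′ on the strand given. Each of the following holds an ERRE in capitals with 20 bases on either side, and they stand for members found in several lists (Foxn2, Src, Lingo1, Gse1, Dmrta2, Gm833), mainly in liver (D030068K23Rik, Gm15326, Nr2f2) or in ERRα 3SA liver alone (Lgi1, Nxph1).
Foxn2, chr17:88297639-88297687, plus strand: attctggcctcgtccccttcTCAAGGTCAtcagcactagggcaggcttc
Src, chr2:157489417-157489465, plus strand: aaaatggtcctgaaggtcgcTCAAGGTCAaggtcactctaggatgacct
Lingo1, chr9:56554240-56554288, minus strand: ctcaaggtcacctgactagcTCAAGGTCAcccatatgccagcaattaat
Gse1, chr8:120363795-120363843, plus strand: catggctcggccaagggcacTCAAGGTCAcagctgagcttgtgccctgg
Dmrta2, chr4:110051341-110051389, minus strand: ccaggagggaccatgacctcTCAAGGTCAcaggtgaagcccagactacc
Gm833, chr4:152806828-152806876, minus strand: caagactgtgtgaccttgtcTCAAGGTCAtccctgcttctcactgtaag
D030068K23Rik, chr8:109006480-109006528, plus strand: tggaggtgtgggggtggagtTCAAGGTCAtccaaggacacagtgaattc
Gm15326, chr13:111935988-111936036, plus strand: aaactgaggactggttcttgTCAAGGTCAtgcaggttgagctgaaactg
Nr2f2, chr7:70483654-70483702, plus strand: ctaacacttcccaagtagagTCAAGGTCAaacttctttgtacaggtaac
Lgi1, chr19:38329413-38329461, minus strand: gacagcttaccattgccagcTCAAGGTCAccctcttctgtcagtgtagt
Nxph1, chr6:8865740-8865788, plus strand: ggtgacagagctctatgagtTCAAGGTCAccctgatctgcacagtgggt

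Other members carried repeated elements or none. The 300 bases at the centre of the ERRα 3SA muscle peak at Celrr are shown because 3 ERREs, in capitals, follow each other at equal spacing. Those at Ntrk2 (ERRα 3SA liver) and Gm12669 (WT muscle) are shown because AGGTCA cores, in capitals as AGGTCA or as its reverse complement TGACCT, recur 7 and 17 times without a full ERRE. The windows of Fam49a and Cr2 (both WT muscle) are shown because they belong to the highest-scoring members of WT muscle and hold neither element, so they have no capitals.
Celrr, chr1:121181442-121181741, plus strand: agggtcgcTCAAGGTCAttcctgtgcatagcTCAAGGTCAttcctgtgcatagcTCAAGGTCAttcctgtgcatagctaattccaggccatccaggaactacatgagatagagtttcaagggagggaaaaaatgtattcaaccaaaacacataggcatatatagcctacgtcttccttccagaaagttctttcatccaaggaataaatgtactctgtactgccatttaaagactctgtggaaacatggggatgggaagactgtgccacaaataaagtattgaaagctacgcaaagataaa
Ntrk2, chr13:59139435-59139734, plus strand: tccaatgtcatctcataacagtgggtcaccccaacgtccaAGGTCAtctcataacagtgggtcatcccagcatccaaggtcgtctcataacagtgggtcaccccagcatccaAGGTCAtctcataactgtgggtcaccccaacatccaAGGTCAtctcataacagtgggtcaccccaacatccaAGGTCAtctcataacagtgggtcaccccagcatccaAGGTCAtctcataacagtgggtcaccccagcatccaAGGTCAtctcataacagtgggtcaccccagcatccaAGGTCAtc
Gm12669, chr7:137516743-137517042, plus strand: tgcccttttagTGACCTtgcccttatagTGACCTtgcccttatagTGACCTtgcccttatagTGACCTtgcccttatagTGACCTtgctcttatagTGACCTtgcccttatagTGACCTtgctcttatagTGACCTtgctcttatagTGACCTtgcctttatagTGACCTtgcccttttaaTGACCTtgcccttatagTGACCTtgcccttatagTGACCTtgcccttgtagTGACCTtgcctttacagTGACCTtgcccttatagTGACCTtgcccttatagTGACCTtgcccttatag
Fam49a, chr12:12176433-12176732, plus strand: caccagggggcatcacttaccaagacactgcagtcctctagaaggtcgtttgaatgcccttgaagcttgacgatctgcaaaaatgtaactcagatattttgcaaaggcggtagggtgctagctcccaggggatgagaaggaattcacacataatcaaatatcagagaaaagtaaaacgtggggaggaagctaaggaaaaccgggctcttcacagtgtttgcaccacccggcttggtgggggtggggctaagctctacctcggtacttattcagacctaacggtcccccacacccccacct
Cr2, chr1:195241582-195241881, plus strand: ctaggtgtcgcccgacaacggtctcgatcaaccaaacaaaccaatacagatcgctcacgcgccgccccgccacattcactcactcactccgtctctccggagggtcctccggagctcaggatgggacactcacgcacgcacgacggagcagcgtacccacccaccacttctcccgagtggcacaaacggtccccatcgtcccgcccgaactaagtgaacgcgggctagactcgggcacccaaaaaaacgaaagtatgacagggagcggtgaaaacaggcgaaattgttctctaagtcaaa

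In muscle, ERRα 3SA mice had 2.21 (2.101–2.33) times as many distal intergenic peaks outside repeats as WT mice, 4813 against 2178. In liver they had 1.26 (1.18–1.34) times as many, 2365 against 1880. The same ratio over all peaks was 1.99 (1.962–2.02) in muscle and 1.33 (1.31–1.36) in liver, so the distal class stood above the whole list in muscle, while its liver interval overlapped that of the whole list. When the longer list of each tissue was cut to its top-scoring peaks so that both lists were equally long, the ratio was 1.11 (1.05–1.17) in muscle and 0.949 (0.889–1.01) in liver. Many peaks tie at the score where the longer list was cut, and depending on which tied peaks are kept the ratio could lie between 0.838 and 1.28 in muscle and between 0.817 and 0.986 in liver.

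Distal peaks made up a similar part of each list. Their shares were 8.57% (8.23–8.92), 9.50% (9.25–9.76), 8.62% (8.25–9.0) and 8.14% (7.84–8.46). The share was thus higher with the mutation in muscle, where the intervals did not overlap, and lower in liver, where they did. Among the classes most like them, intergenic peaks outside repeats up to 50 kb from a TSS gave ERRα 3SA to WT ratios of 2.09 (2.01–2.18) in muscle and 1.43 (1.37–1.5) in liver, and intronic peaks outside repeats 1.93 (1.88–1.98) and 1.41 (1.37–1.45). The liver ratio of the distal peaks was below that of both, and their muscle ratio was above that of the intronic peaks. Distal intergenic peaks in repeats were 2.29 (2.17–2.40) times as many with the mutation in muscle but 0.878 (0.821–0.938) times in liver, so the liver lists differed in their repeat content and the share of distal intergenic peaks that lay outside repeats was 50.5% in WT and 59.4% in ERRα 3SA liver, against 49.9% and 49% in muscle.

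The muscle ratio was alike over the genome and over scores. It was above 1 on all 19 autosomes and lay between 1.64 (chromosome 16) and 2.59 (chromosome 19). By peak score, in bins that need not mean equal strength in the lists compared, it was 2.21 at 30 to 49, 2.14 at 50 to 99, 2.27 at 100 to below 200 and 2.74 (1.77–4.24) at 200 and over, with overlapping intervals. In liver the ratio was above 1 on 18 of 19 autosomes, from 0.942 on chromosome 16 to 1.66 on chromosome 7, and it depended on the score, at 1.07 (0.991–1.16) for scores of 30 to 49 and 1.961 (1.62–2.38) for scores of 100 to below 200. Members scoring at least 100 were 83 and 201 in WT and ERRα 3SA muscle, a ratio of 2.42 (1.88–3.13), and 274 and 492 in liver, a ratio of 1.80 (1.55–2.08). The X chromosome held few members, 12, 14, 13 and 7.

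Most distal peaks had scores near the lowest of their list. The peak score, which serves here to rank peaks within a list since an equal score need not mean equal binding in another list, started at 30 in all lists. The median member scored 36, 36, 44 and 49, and 85.7% of the members of either muscle list, 65% of WT liver and 55.3% of ERRα 3SA liver members scored below 50. The lowest score was shared by 770 WT and 1735 ERRα 3SA muscle members, but by only 2 and 9 liver members. Members scoring at least 100 were 3.81% (3.09–4.70), 4.18% (3.65–4.78), 14.6% (13.1–16.2) and 20.8% (19.2–22.5). Among intronic peaks outside repeats the shares were 4.83% (4.40–5.30), 5.88% (5.54–6.25), 19.1% (18.2–20.1) and 21.1% (20.3–21.9), and only in ERRα 3SA muscle and WT liver were these above the distal peaks beyond the intervals.

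Distal peaks lay a median of 102.2, 105.8, 105.7 and 101.7 kb from the nearest TSS, with the farthest at 2210, 1826, 1520 and 1246 kb. Between 49% and 53% of them were upstream of the gene they were annotated to. Around the limit of 50000 bp, the nearest member and the nearest peak left out were at Zfpm1 (50014 bp, score 30) and Pmepa1 (49997 bp, score 33) in WT muscle, at Grik3 (50001 bp, 41) and Snhg20 (49942 bp, 42) in ERRα 3SA muscle, at Foxp4 (50010 bp, 38) and Rap2a (49972 bp, 33) in WT liver, and at Fzd5 (50043 bp, 160) and Plet1 (49997 bp, 330) in ERRα 3SA liver.

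The distance depends on the annotation used. Against curated RefSeq transcripts of GRCm38, 12%, 10.6%, 11.9% and 13.7% of the members were within 50 kb of a TSS. When predicted RefSeq models were counted too, these shares were 63.2%, 63.4%, 60.8% and 65.4%, and 23.7%, 23.2%, 21.3% and 23.7% of the members lay inside a RefSeq transcript. Many of the regions that are distal to known genes are thus near or in predicted transcripts. Bases outside curated genes, over 50 kb from a curated TSS and not masked as repeats made up 552.3 of 2559 Mb of sequence (21.6%). The centres of 1730, 3878, 1498 and 1859 members lay on these bases. That was 3.13, 7.02, 2.71 and 3.37 members per Mb, against 9.94, 19.8, 8.52 and 11.4 peaks of any class per Mb of the whole sequence.

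The ERRE marked these peaks in liver and, less often, in muscle. TCAAGGTCA was found on either strand within the central 300 bp of 65 WT muscle members, or 2.98% (2.35–3.79), where 3.92% of all WT muscle peaks held it. In ERRα 3SA muscle 171 members held it, or 3.55% (3.07–4.11), against 4.28% of all peaks of that list. In liver it was present in 224 WT members, or 11.9% (10.5–13.5), and 299 ERRα 3SA members, or 12.6% (11.4–14), against 14.6% and 15.2% of all peaks. The share of each whole list lay above the interval of its distal members, which are themselves part of that list.

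Against their own surroundings the shares were high. Windows 5000 bp to either side of the members held TCAAGGTCA in 0.712%, 0.696%, 0.559% and 0.486%, so the centres exceeded them 4.19, 5.10, 21.3 and 26.0 times. The reversed motif ACTGGAACT, which has the same bases in another order, was present in only 0.413%, 0.187%, 0.426% and 0.381% of the centres. Between genotypes the ERRE intervals overlapped in both tissues, and between tissues they did not. Intronic peaks outside repeats held the ERRE in 4.30% (3.89–4.74) and 3.97% (3.68–4.27) of muscle and in 12.53% (11.8–13.3) of WT liver peaks, with an interval of 11.9 to 13.2% in ERRα 3SA liver, and only in WT muscle did this differ from the distal peaks beyond the intervals. Distal intergenic peaks in repeats held it in 1.23% (0.849–1.79), 1.92% (1.57–2.34), 8.64% (7.44–10) and 13% (11.5–14.7), less than the peaks outside repeats in every list but ERRα 3SA liver.

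**Figure D1:**
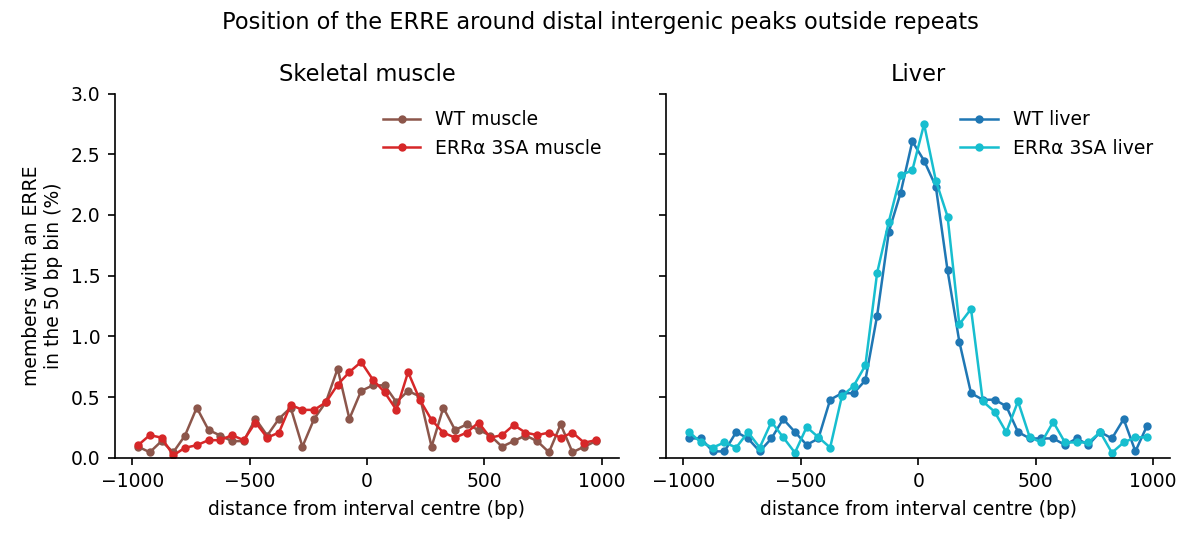
Position of TCAAGGTCA around the centres of distal intergenic peaks outside repeats: the x axis is the distance from the interval centre in bp, the y axis the percentage of members with the element in each 50 bp bin, and each line is 1 list. The liver lines peak at 2.61% (WT) and 2.75% (ERRα 3SA) beside the centre, and the muscle lines reach 0.735% and 0.790%.

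The elements lay most often next to the centres of the intervals in both liver lists, while the profiles of the muscle lists were flatter. Along the members, the 50 bp bin with the most elements was next to the centre in both liver lists, with 2.61% of WT and 2.75% of ERRα 3SA members. In ERRα 3SA muscle the highest bin was also next to the centre (0.790%), but the bins at -75 and 175 bp reached 0.706% each. In WT muscle the highest bin lay 125 bp away (0.735%). Most members with the element had 1 copy (60 of 65, 162 of 171, 201 of 224 and 273 of 299), and 1, 2, 4 and 5 members had more than 2.

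The second base of the element was mostly C, then G. With C at this position 65, 171, 224 and 299 members held the element, with G (TGAAGGTCA) 35, 91, 109 and 169, with A (TAAAGGTCA) 6, 28, 15 and 29, and with T (TTAAGGTCA) 6, 14, 4 and 8. The G form exceeded the surrounding windows 3.04 and 3.43 times in muscle and 13.6 and 17.8 times in liver. The T form was at 0.875 to 1.78 times its surroundings in the 4 lists, with 4 to 14 members each. The base before the element was least often A, at 5.71%, 7.10%, 9.02% and 6.61% of elements, and most often T, at 38.6%, 35%, 42% and 46%. Any AGGTCA core, which also lies within the ERRE, was present in 26.1% (24.3–28), 29.5% (28.2–30.8), 49.4% (47.1–51.6) and 56% (54–58) of the centres, which was 1.46, 1.53, 2.67 and 3.05 times the surrounding windows.

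A count of words of 8 bases, with no motif chosen, led to the same element in liver. Only words found in at least 1% of the members of a list were ranked. CAAGGTCA, the ERRE without its first base, was the most over-represented word of both liver lists, in 24.4% of WT members against 1.97% of the windows around them and in 26.8% of ERRα 3SA members against 1.80%. In ERRα 3SA muscle it came after 2 GC-rich words, in 8.85% of members against 2.04%. In WT muscle the leading words were GC-rich words such as CAGCCGAG (26 members, 1.19%) and CCAGGGCG (28 members, 1.29%), just above that limit. None of the first 8 was part of the ERRE.

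**Figure D2:**
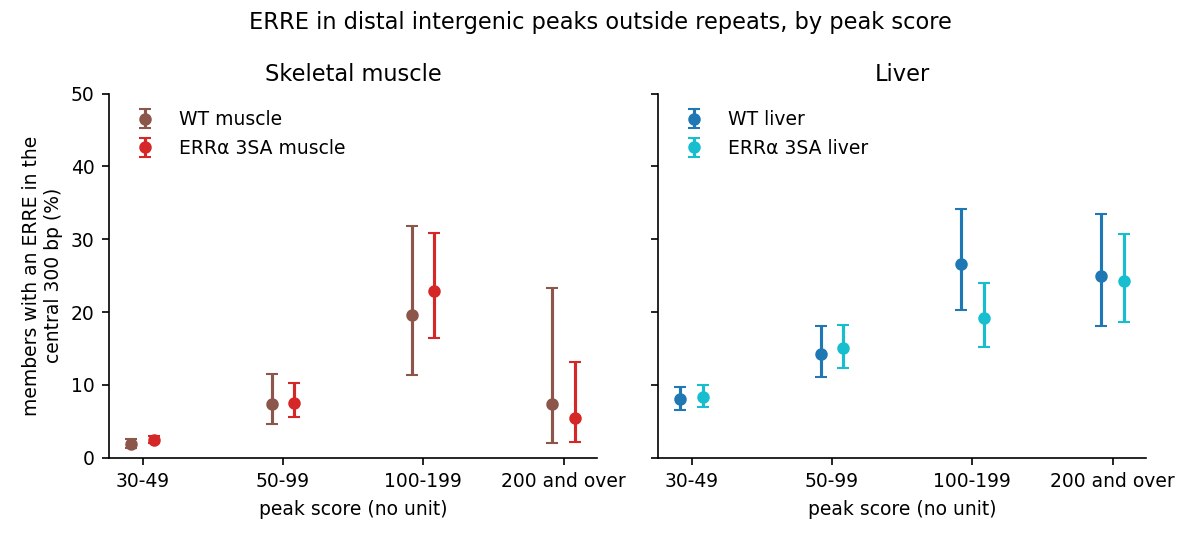
Share of distal intergenic peaks outside repeats with TCAAGGTCA in the central 300 bp (y axis, percent) by peak score (x axis), for each list, with 95% Wilson intervals. The share is higher at scores of 100 to below 200 than at 30 to 49 in all lists, and in muscle it is lower again at 200 and over.

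The element was more frequent at stronger peaks. At scores of 30 to 49 it was held by 1.88% (1.35–2.60) of WT and 2.45% (2.02–2.97) of ERRα 3SA muscle members, and at 100 to below 200 by 19.6% (11.3–31.8) and 22.8% (16.4–30.9). In liver the corresponding shares were 8.03% (6.63–9.69) and 8.41% (7.03–10) at 30 to 49, and 26.6% (20.3–34.1) and 19.2% (15.2–24) at 100 to below 200. At 200 and over the liver shares stayed at 25% and 24.2%, but in muscle only 2 of 27 WT and 4 of 74 ERRα 3SA members held the element centrally, or 7.41% (2.06–23.4) and 5.41% (2.12–13.1). Over the whole interval, which is wider for strong peaks (a median of 928 and 1042 bp here, against 408 and 395 bp at scores of 30 to 49), these became 6 of 27 and 16 of 74, or 22.2% (10.6–40.8) and 21.6% (13.8–32.3).

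Some of the strongest members had no AGGTCA core at the centre, although a smaller share than of all members. Of the members scoring 200 or more, 10 of 27, 32 of 74, 40 of 120 and 51 of 190 had none, or 37%, 43.2%, 33.3% and 26.8%, against 73.9%, 70.5%, 50.6% and 44% of all members. Of the same strong members, 5, 5, 4 and 3 lay within 0.5 Mb of the first or last sequenced base of a chromosome, or 18.5%, 6.76%, 3.33% and 1.58%. Of all members 48, 81, 39 and 30 did, or 2.20%, 1.68%, 2.07% and 1.27%. A CpG content above 5% was found in 1, 3, 1 and 4 of the strong members. The part of chromosome ends and of CpG content in these scores was not tested.

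**Figure D3:**
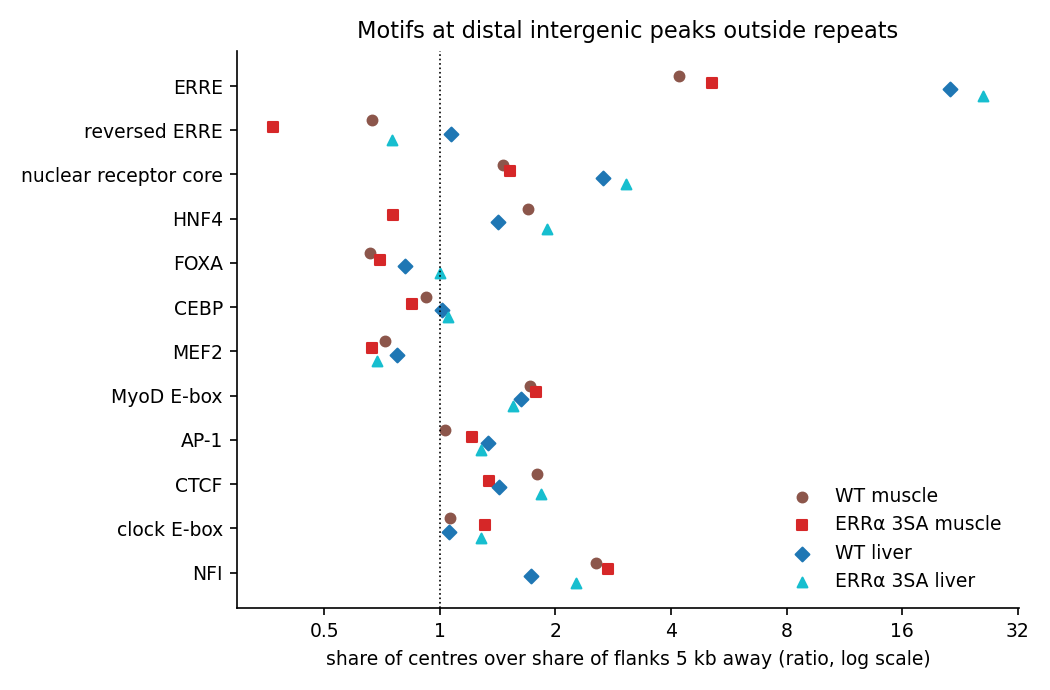
Share of distal intergenic peaks outside repeats with a motif in the central 300 bp divided by the share in windows 5 kb away (x axis, ratio on a log scale), for 12 motifs (y axis) and 4 lists. The ERRE stands apart in liver at 21.3 and 26. In muscle it is the highest at 4.19 and 5.10, with a smaller gap, and the other motifs lie between 0.367 and 3.05 over the 4 lists.

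Motifs of other factors were far closer to their surroundings than the ERRE in liver. In muscle the gap was smaller, with the NFI motif at 2.55 and 2.73 times its surroundings and the ERRE at 4.19 and 5.10 times. All motifs were searched on both strands in the central 300 bp. CAGCTG, the E-box of MyoD, the master factor of muscle, was present in 24.3%, 24.5%, 20.4% and 20.3% of the members, which was 1.72, 1.78, 1.63 and 1.55 times the windows around them. The muscle E-box was therefore over-represented in liver members to about the same degree. The motif of MEF2, another muscle factor, was less frequent than in the surroundings in all 4 lists, at 0.720, 0.665, 0.774 and 0.685 times.

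Among liver factors, TGTTTAC of the FOXA pioneer factors was at 0.659, 0.698, 0.813 and 1.00 times the surrounding share, and CAAAGTCCA of HNF4 at 1.69, 0.756, 1.42 and 1.90 times with 11, 17, 17 and 19 members. TTGCNNAA of the C/EBP factors lay at 0.919, 0.845, 1.01 and 1.05 times, TGACTCA of AP-1 at 1.03, 1.21, 1.34 and 1.28 times, and CACGTG, the E-box bound by the circadian clock factors, at 1.06, 1.31, 1.06 and 1.28 times. The NFI palindrome was at 2.55, 2.73, 1.73 and 2.27 times with 37, 82, 19 and 34 members, and the CTCF core at 1.79, 1.35, 1.42 and 1.84 times. Base composition moved with these values, as the central windows had a median GC content of 52.3%, 52%, 49.3% and 49.3% against 45.7%, 45.7%, 44.3% and 44.7% around them, and its part in the motif shares was not tested.

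Few distal muscle sites were found in both genotypes. A member had a partner when a peak centre of the other genotype's list of the same tissue lay within 300 bp. In WT muscle 395 members, or 18.1% (16.6–19.8), had such a partner, where 20.2% of all WT muscle peaks did, and in ERRα 3SA muscle 400 members, or 8.31% (7.56–9.12), against 10.1% of all peaks. In liver the numbers were 767 WT members, or 40.8% (38.6–43), against 42.9%, and 781 ERRα 3SA members, or 33% (31.2–34.9), against 32.2% of all peaks. The distal peaks were thus close to their whole lists, and the muscle members were somewhat below. A longer list offers more partners, and between equally long lists the shares were 14.1% (12.7–15.7) and 12.9% (11.6–14.3) in muscle and 38.8% (36.6–41) and 41.7% (39.4–44) in liver.

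**Figure D4:**
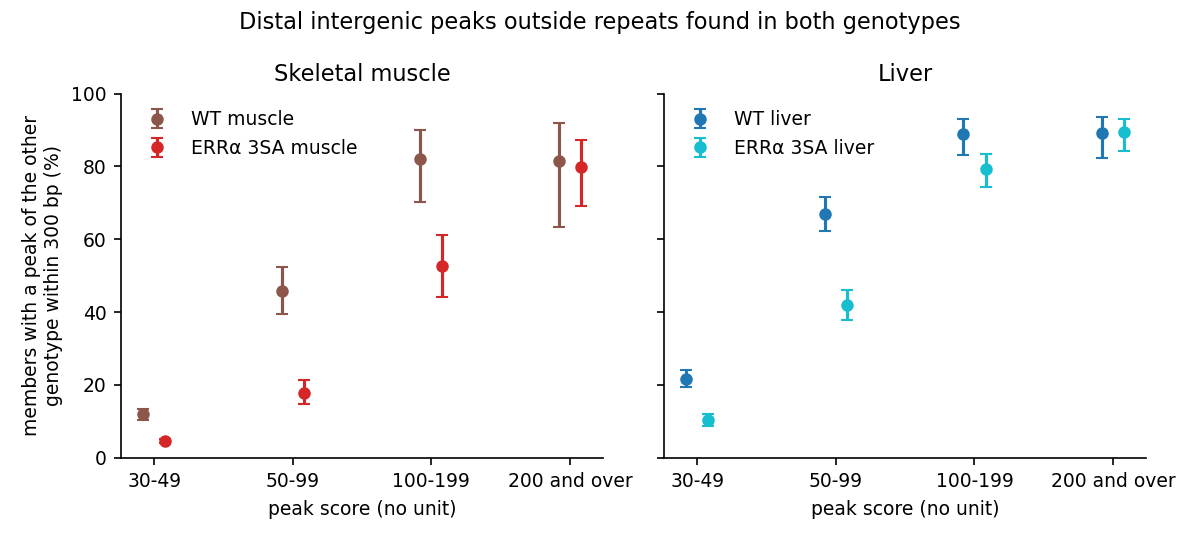
Share of distal intergenic peaks outside repeats with a peak centre of the other genotype within 300 bp (y axis, percent) by peak score (x axis), for each list, with 95% Wilson intervals. In all lists about 80% to 90% of the members scoring 200 and over have a partner, while at scores of 30 to 49 the shares lie between 4.54% and 21.7%.

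High-scoring peaks were shared far more often than weak ones. At scores of 30 to 49, 11.9% (10.5–13.4) of WT and 4.54% (3.94–5.21) of ERRα 3SA muscle members had a partner, and at 200 and over 81.5% (63.3–91.8) and 79.7% (69.2–87.3). In liver the shares were 21.7% (19.5–24.1) and 10.3% (8.79–12.1) at 30 to 49, and 89.2% (82.3–93.6) and 89.5% (84.3–93.1) at 200 and over. In between, at scores of 100 to below 200, 82.1% (70.2–90) of WT muscle members but 52.8% (44.1–61.2) of ERRα 3SA muscle members had a partner. Thus 60 of 127 ERRα 3SA muscle members of this score had none. Among all peaks of this score 80.6%, 60.7%, 87.3% and 76.5% had a partner, so the muscle lists differed in the same way over all peaks, and the ERRα 3SA muscle list is the longer one.

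Members found in both genotypes held the ERRE more often than the others. In WT muscle 11.1% (8.403–14.6) of members with a partner and 1.18% (0.772–1.79) of those without held it, and in ERRα 3SA muscle 10% (7.43–13.3) and 2.97% (2.51–3.51). In WT liver the shares were 21.3% (18.5–24.3) and 5.48% (4.29–6.98), and in ERRα 3SA liver 19.6% (17–22.5) and 9.22% (7.89–10.7). The intervals did not overlap in any list. Peaks without a partner held the element more often in ERRα 3SA mice than in WT mice in both tissues, again with intervals that did not overlap. In both tissues the ERRα 3SA list is the longer one, so WT members were compared with more peaks. Over all members the ERRE intervals overlapped between the genotypes, and the part of list length was not tested.

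The same difference was seen among weak peaks alone. At scores of 30 to 49, members with and without a partner held the ERRE in 8.11% (5.19–12.45) and 1.03% (0.647–1.65) in WT muscle, in 18.9% (14.6–24) and 5.02% (3.81–6.59) in WT liver, and in 18.5% (12.9–25.9) and 7.25% (5.90–8.87) in ERRα 3SA liver. In ERRα 3SA muscle the values were 5.88% (3.32–10.2) and 2.29% (1.86–2.80), also without overlap. At 100 to below 200 in ERRα 3SA muscle, 14 of 67 members with a partner and 15 of 60 without one held the element, or 20.9% (12.9–32.1) and 25% (15.8–37.2), so at this strength the intervals overlapped.

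Sharing with the other tissue separated the muscle members further. In the list of the same genotype, 8.402% (7.31–9.64) of WT muscle, 8.93% (8.16–9.77) of ERRα 3SA muscle, 10.2% (8.87–11.6) of WT liver and 18.2% (16.7–19.8) of ERRα 3SA liver members had a peak centre of the other tissue within 300 bp, where 11.7%, 11.5%, 13.6% and 20.1% of all peaks did. All shares were below those of their whole lists. Counting either list of the other tissue, 270 WT and 547 ERRα 3SA muscle members had a liver peak, and of these 15.6% (11.7–20.4) and 15.5% (12.7–18.8) held the ERRE. Of the 1908 and 4266 muscle members without a liver peak, 1.21% (0.805–1.80) and 2.02% (1.64–2.48) did.

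A group of 372 ERRα 3SA muscle members had no WT muscle partner but a liver peak at the same place. Of these, 58 held the ERRE, or 15.6% (12.3–19.6), while of the 4041 ERRα 3SA muscle members without a partner in any list 73 did, or 1.81% (1.44–2.27). In WT muscle 101 members had no ERRα 3SA muscle partner but a liver peak, and 10 of them held the element, or 9.90% (5.47–17.3). The groups of 372 and 101 were 7.73% (7.01–8.52) of ERRα 3SA and 4.64% (3.83–5.60) of WT muscle members. The ERRα 3SA muscle list is the longer one, and such groups were not counted over all peaks. The MyoD E-box did not separate these groups, at 24.7% (21.3–28.5) of ERRα 3SA muscle members with and 24.4% (23.2–25.7) without a liver peak.

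**Figure D5:**
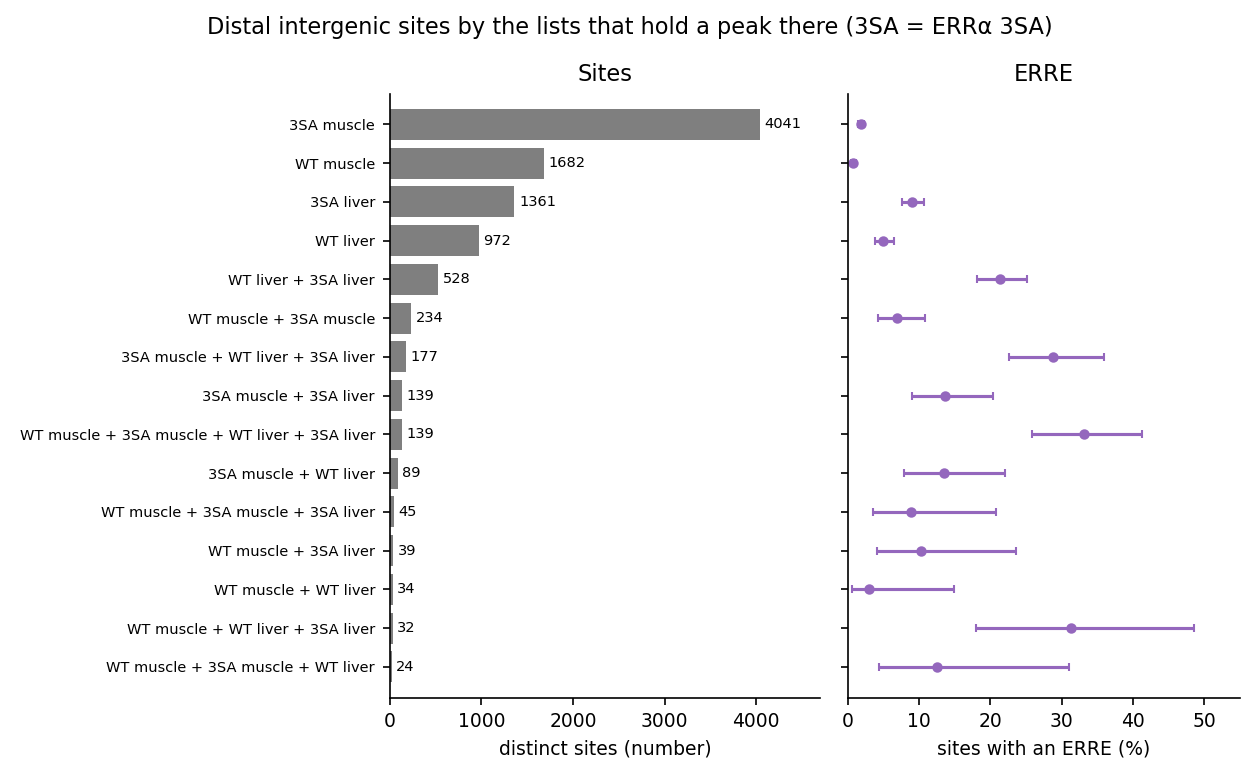
Distinct distal intergenic sites by the lists that hold a peak there (left, number of sites) and the percentage of them with TCAAGGTCA (right, with 95% Wilson intervals). Sites of a single list number 1682 (WT muscle), 4041 (ERRα 3SA muscle), 972 (WT liver) and 1361 (ERRα 3SA liver). These hold the element in 0.654% to 8.96%, while the 139 sites present in all 4 lists hold it in 33.1%.

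When members whose centres lay within 300 bp were joined, the 4 lists held 9536 distinct sites. Of these, 8056 (84.5%) had a peak in a single list, 1063 in 2 lists, 278 in 3 and 139 (1.46%) in all 4. Sites were not joined over all peaks, so these numbers have no counterpart for other classes. The partner shares between genotypes given above were close to those of the whole lists, with the muscle members somewhat below. ERRα 3SA muscle alone accounted for 4041 sites, of which 1.81% (1.44–2.27) held the ERRE, and WT muscle alone for 1682, of which 0.654% (0.366–1.17) did, about the share of the surrounding windows. Sites of ERRα 3SA liver alone (1361) and WT liver alone (972) held it in 8.96% (7.56–10.6) and 4.94% (3.75–6.49).

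Sites of both liver lists, with or without muscle, held the element most often. The 528 sites of both liver lists held it in 21.4% (18.1–25.1), the 234 sites of both muscle lists in 6.84% (4.25–10.8), and the 139 sites of all lists in 33.1% (25.8–41.3). The 177 sites of ERRα 3SA muscle and both liver lists, which were missing from WT muscle only, held it in 28.8% (22.7–35.9). The counterpart with WT muscle and both liver lists had 32 sites, 10 of them with the element, and the WT muscle list is the shorter one. Sites of WT muscle and WT liver held it in 1 of 34.

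The highest-scoring member of WT muscle was present in all lists and lacked the element. At Fam49a on chromosome 12 (12176165–12177002), 85.6 kb upstream of the TSS, intervals scored 1288, 1632, 1881 and 1884, which were ranks 34, 46, 38 and 52 of their lists. Neither an ERRE nor an AGGTCA core lay at the centre of any of them. At Cr2, a complement receptor gene on chromosome 1, a narrow interval of 322 bp (195241572–195241893) scored 947, 723, 1584 and 404, with identical borders in both muscle lists. It had a GC content of 58.4% and a CpG content of 9.35%, against a median CpG content of 1.36% over WT muscle members. At 2010315B03Rik on chromosome 9 the scores were 834, 590, 578 and 330, and 85.2% of the WT muscle interval was masked as repetitive in the reference, although the deposited annotation names no repeat there.

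Foxn2, a forkhead factor gene, had the strongest member with an ERRE in the central 300 bp in both muscle lists. The site on chromosome 17 (88297178–88297890 in ERRα 3SA muscle), 143 kb upstream of the gene, scored 426, 1114, 369 and 516 (ranks 186, 95, 658 and 679), so it stood higher in the muscle lists than in those of liver. Celrr, a long non-coding RNA gene, had the opposite order. Its site with the tandem of 3 ERREs on chromosome 1 (121181196–121181989) scored 2034 in WT liver (rank 32) and 1855 in ERRα 3SA liver (rank 56), but 199 (rank 486) and 422 (rank 366) in WT and ERRα 3SA muscle. In the WT liver interval the centre was shifted so that 1 of the 3 elements lay in the central window.

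At Src, the gene of a tyrosine kinase, 3 ERREs lay under a member on chromosome 2 (157488757–157489908 in WT muscle) that scored 232, 515, 278 and 493. At Lingo1, which encodes a neuronal membrane protein, a member with 2 ERREs on chromosome 9 scored 147, 296, 401 and 820 in the same order. At Sall4, a zinc finger factor gene of stem cells, a member on chromosome 2 with 6 ERREs over its whole interval scored 189, 272, 274 and 437. These 3 sites were thus present in all lists within the top 5% of each.

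At 3 other loci the site ranked higher in the liver lists than in those of muscle. At D030068K23Rik on chromosome 8 (109006183–109007003 in ERRα 3SA liver, where the ERRE is central), liver scores were 1775 and 1658, the mutant muscle list had 119 there, and no WT muscle peak was called. At Gm15326 on chromosome 13 they were 812 and 639, with 63 in ERRα 3SA muscle and again none in WT muscle. Dmrta2, a developmental factor gene, had a member on chromosome 4 scoring 687 and 1167 in liver (ranks 229 and 132) and 57 and 260 in muscle (ranks 2872 and 733). Gse1 on chromosome 8 had overlapping members about 125 kb upstream that stood high in every list, with scores of 669, 743, 889 and 1222 (ranks 98, 160, 138 and 117).

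Clusters of AGGTCA cores marked a few strong sites present in all 4 lists. At Ntrk2, which encodes the receptor of brain-derived neurotrophic factor, a site 332 kb downstream of the TSS on chromosome 13 (59138767–59140404 in ERRα 3SA liver) scored 528, 745, 1553 and 2123 and held 5 to 7 cores in the central 300 bp of each list. The ERRα 3SA liver interval held 1 ERRE outside this window. At Gm12669 on chromosome 7 (137516473–137517314 in WT muscle) scores were 531, 627, 592 and 650, with 17, 17, 18 and 8 cores. In all, 6, 10, 10 and 18 members had at least 5 cores, and 4, 7, 6 and 11 of them scored at least 100. Rybp, which encodes a Polycomb protein, had a site with 3 cores on chromosome 6 at 338, 728, 455 and 615. Tob1, of an antiproliferative gene family, had the highest-scoring member of ERRα 3SA muscle, at 1840 on chromosome 11 (94136477–94139816), overlapped by intervals at 800 in WT muscle and at 604 and 871 in the liver lists. No AGGTCA core lay at its centre, although its whole interval of 3340 bp held 1 ERRE.

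Members without any overlap in the other genotype did not reach the highest scores of their lists. In ERRα 3SA muscle, members near 4921525O09Rik and the adhesion gene Nectin1 were among the strongest of this kind. Both scored 260, had liver peaks in both genotypes and held no ERRE. The 3 strongest in WT muscle, near 6820431F20Rik, Gm21944 and Gpm6a, scored 147, 118 and 104 (ranks 719, 951 and 1155). Of these, that of Gm21944 held an ERRE and had liver peaks of 39 and 49.

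In liver, the strongest members without overlap in the other genotype were at Polr3k for WT, an RNA polymerase III subunit gene on chromosome 2, where neighbouring intervals scored 594 and 229 (ranks 309 and 1349) with no peak in any other list. In ERRα 3SA liver they were at Mboat1, an acyltransferase gene (330, rank 1320), Lgi1 (289, rank 1597) and Nxph1 (241, rank 2070), the last 2 genes of secreted neuronal proteins. Lgi1 and Nxph1 held an ERRE and had a peak in no other list, and Mboat1 had an ERRα 3SA muscle peak at 119. Of the members scoring at least 100, 3 of 83, 55 of 201, 9 of 274 and 50 of 492 shared no base with a peak of the other genotype. These were 3.61% (1.24–10.1), 27.4% (21.7–33.9), 3.29% (1.74–6.12) and 10.2% (7.79–13.2), where 2.11%, 19.2%, 2.18% and 9.51% of all peaks of these scores did. The longer list of each tissue had the higher share, over all peaks as well.

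The 9536 sites were annotated to 2850 genes, of which 1130 had 1 site and 181 had 10 or more. The lists of genes below were set up from general knowledge and count a gene when it was the annotated nearest gene of at least 1 member. Over the 19188 genes named in any list, 6.57%, 10.6%, 6.14% and 7.05% had a member. Of the genes with a peak of any class in a list, 10.7%, 13.1%, 10.9% and 10.9% had a member there. A gene with a peak but no distal member was thus the usual case, and the short lists were not tested against these shares. Of 24 genes of fatty acid use, 1 had a member in each list, while 15, 19, 18 and 19 had a peak of any class. Acaa2, the gene of the last enzyme of mitochondrial β-oxidation, had weak members at separate places in both muscle lists (57 and 41) and in ERRα 3SA liver (31), and Lpl, the gene of lipoprotein lipase, had a member of score 32 in WT liver.

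Of 33 genes of the respiratory chain and TCA cycle, only Sucla2 had a distal member, while 30 to 33 of them had a peak of some class in each list. Over all genes with a peak, the share with a member was 10.7%, 13.1%, 10.9% and 10.9%, and the difference was not tested. Sucla2, the gene of a succinyl-CoA synthetase subunit, had a member 55 kb downstream on chromosome 14 (73607397–73608150) that scored 73 in WT muscle (rank 1805) and 306 in ERRα 3SA muscle (rank 608), with no liver peak. A liver member 80.2 kb downstream scored 113 in ERRα 3SA mice, within 300 bp of a WT peak of 177 that is no member itself. The muscle of ERRα 3SA mice had further weak members of 36 and 33, the first of them 79 kb downstream. Neither of the strong sites held an ERRE.

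Of 12 genes of the ERR family and its coregulators, 4, 5, 3 and 4 had a member. Ppargc1a, the gene of PGC-1α, had its strongest member 513 kb downstream on chromosome 5 (51040596–51041302 in WT muscle), at 221 in WT muscle (rank 430, top 1.69%), 214 in ERRα 3SA muscle (rank 928, top 1.83%), 77 in ERRα 3SA liver and none in WT liver. It held 1 AGGTCA core and no ERRE, and its place within the muscle lists was alike in both genotypes. Beyond it, 5 more members of ERRα 3SA muscle were annotated to Ppargc1a, with scores of 41, 39, 35, 30 and 30, and none of WT muscle, and 3 more of ERRα 3SA liver, with scores of 37, 37 and 36, and none of WT liver. In both tissues the ERRα 3SA list is the longer one.

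Among the other ERR genes, Esrrg had 1 member in WT muscle (38), 3 in ERRα 3SA muscle (49, 47 and 30) and 1 in each liver list (33 and 37), none within 300 bp of a peak of the other genotype. Esrrb had 2 members, both of score 36 in ERRα 3SA muscle, and Esrra, the gene of ERRα itself, had none. Nrip1, the gene of the corepressor RIP140, had a liver site far upstream on chromosome 16 (76672914–76673308 in WT) with an ERRE, which scored 104 and 168, and a shared muscle site 60.4 kb upstream at 49 and 42.

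Of 30 other nuclear receptor genes, 7, 8, 6 and 5 had a member. Nr2f2, the gene of the orphan receptor COUP-TFII, had a site with an ERRE 117 kb upstream on chromosome 7 (70483462–70483823) that scored 160 in WT and 168 in ERRα 3SA liver and had no muscle peak. The highest-scoring muscle member of this list was annotated to Hnf4g, at 124 in ERRα 3SA muscle and 65 in WT muscle. It lay at the first sequenced bases of chromosome 3 (3000822–3001864) within a run of 11 ERRα 3SA muscle members, 507 kb from the gene.

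Genes that characterise the tissues were looked at in the same way. Of 38 muscle genes, only Mef2a, the gene of a muscle transcription factor, had any, 1, 8, 0 and 4 in the lists, with the highest at 65 in ERRα 3SA muscle and at 104 in ERRα 3SA liver. Of 34 liver genes, 4, 4, 4 and 6 had a member, among them Prox1, a hepatocyte homeobox gene, at 57 in WT and 139 in ERRα 3SA liver, and Igf1, the gene of insulin-like growth factor, at 57 in ERRα 3SA muscle only. Of 20 circadian clock genes, 1, 3, 1 and 1 had a member, and Nfil3, the gene of a clock output repressor, had a site that scored 38 and 57 in muscle and 127 in the liver of ERRα 3SA mice. Counting peaks of any class, 28, 30, 19 and 20 of the muscle genes and 19, 21, 23 and 28 of the liver genes had a peak. Of the 19188 genes named in any list, 11825, 15448, 10825 and 12431 had one, so the number of genes with a peak differed between lists in general. The short lists were not tested against these numbers, and they are the only check made of the tissue labels. The genotype cannot be checked from peak lists.

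Non-coding genes were nearest to distal peaks more often than to other peaks, in 23.7%, 24%, 21.3% and 20.7% of members against 14.3%, 15%, 13.6% and 12.8% of all peaks. The gene with the most distinct sites was the non-coding Gm833 on chromosome 4 with 39. Its members numbered 11, 24, 3 and 7, and the strongest with an ERRE scored 57, 119, 221 and 421 in these lists. It was followed by the cadherin gene Cdh26 with 35 sites, the adherens junction gene Ajap1 and the zinc finger gene Tshz3 with 34 each, and Gm10324 with 33, equal to Nectin1. The members of Ajap1 were weak throughout, at 57 or below, and none held an ERRE.

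Distal peaks of ERRα 3SA muscle lay closer together than those of the other lists. A member had another of the same list nearby, within the distance given under the processing, in 27.8% of WT muscle, 41.9% of ERRα 3SA muscle, 21.5% of WT liver and 27.7% of ERRα 3SA liver members, and longer lists have more neighbours. The largest run held 17 ERRα 3SA muscle members over 75286 bp near Gse1 (chromosome 8, 120363187–120438472), with scores from 30 to 743. None of them had an ERRE at its centre, although the Gse1 ERRE shown above lies within the run. The next held 16 members over 62728 bp near A330074K22Rik on the same chromosome, scoring at most 82. The largest liver run had 10 WT members near Sipa1l2 on chromosome 8, with scores up to 799 and 2 ERREs.

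A few members overlapped regions that RefSeq lists as enhancers. These were 14 of 2178 in WT muscle, 29 of 4813 in ERRα 3SA muscle, 15 of 1880 in WT liver and 21 of 2365 in ERRα 3SA liver. A region of the VISTA enhancer collection 73817 bp downstream of Anp32a on chromosome 9 (62414649–62415677) was covered in 3 lists. The scores were 168 in WT muscle, 192 in ERRα 3SA muscle and 268 in WT liver. An ERRE lay in the central 300 bp of the WT muscle member only, but the other intervals also span that stretch. A region near Vegfa, the gene of the angiogenic growth factor, on chromosome 17 (45885692–45887732) was covered by liver members scoring 33 and 36 in WT and 127 in ERRα 3SA mice. CpG islands were rare among distal peaks, with 36, 45, 15 and 21 members annotated to one. Overlaps with enhancers and CpG islands were not counted over all peaks, so they cannot be set against other classes.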

How the data were processed

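ERRα ChIP-seq was carried out on muscle and liver chromatin of WT and ERRα 3SA mice, with 1 peak list per genotype and tissue. By the submitters' processing notes, reads were handled with Trimmomatic 0.36, BWA 0.7.12, Picard 2.0.1, MACS2 2.1.1.20160309 and HOMER 4.9.1, on mm10. The authors deposited, for each peak, its position, a peak score, its distance to the nearest TSS, its annotation, and the CpG and GC content as fractions computed over the interval. The deposited score is not defined in the lists, and its lowest value is 30 in each. It was used to rank peaks within a list. Read numbers are not given in the lists, and the depth behind a peak is therefore unknown.

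Members were peaks annotated as intergenic, over 50000 bp from a TSS, with no repeat name in the detailed annotation. Motifs were searched on both strands of the GRCm38 reference in the central 300 bp of each interval and in windows 5000 bp away on either side. MEF2, CTCF and NFI motifs are longer and are given by name. Peaks were partners when their centres lay within 300 bp, and a site joined members by the same distance. Members of a list whose centres were at most 12500 bp apart formed a run. The GC content of the reference interval equalled the deposited fraction within 0.006 for all members. TSS and transcripts for the annotation check came from RefSeq. Python 3.11.15, numpy 2.4.6, pandas 2.3.3, pysam 0.24.0, matplotlib 3.10.9 and samtools 1.23.1 were used, and the steps were tested on simulated data.

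With 1 list per group no test was made. Shares and ratios of counts have 95% intervals (Wilson, for ratios derived from the fraction that either list contributes to the total). The members, motifs and gene lists were chosen with earlier results of these data known. Members were named by rule. The rule took the highest scores of each list, those present in all 4 lists and the highest with an ERRE in the central 300 bp. It also took the highest without overlap in the other genotype, the genes with the most sites, and the highest of each gene list. Loci named for clusters, AGGTCA cores or RefSeq enhancers were chosen after their values were seen. The alternatives tried were other scores, distances, repeats, list lengths, partner distances and motif windows, and the omission of muscle members with a liver peak was added after seeing the data. Input libraries and RNA data were not analysed here. Some members that meet the naming rule are not reported here.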

Additional observations from a re-analysis of the deposited data

Results flagged for a closer look

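Differences between ERRα 3SA and WT lists that had opposite signs in the tissues were singled out, and these differences between tissues were not tested. The share of distal intergenic peaks outside repeats in the list, ERRα 3SA minus WT, was 0.937 percentage points in muscle and -0.475 percentage points in liver. Their median GC content differed by -0.13 percentage points in muscle and by 0.03 percentage points in liver.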

How the results depend on the processing

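Each list comes from 1 library, so no replicate could be left out. No paired analysis was possible because each genotype and tissue has a single list and no result comes from a test. Of all values under an alternative, 19 stayed within the interval of the value reported, 61 moved beyond it and 1 turned its direction. Where 4 values follow each other, they are for WT muscle, ERRα 3SA muscle, WT liver and ERRα 3SA liver. The causes were not tested, but some moves follow by construction and are part of the 61. Stricter partner distances, shorter windows and, for the share of the list, a larger distance to the TSS can only lower a value. Wider partner distances, the motif TNAAGGTCA and, for the share of the list, repeats kept can only raise it.

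With lists of equal length, the number of members in ERRα 3SA over WT was 1.11 in muscle and turned to 0.949 in liver, and the share with a partner was 14.1% and 12.9% in muscle and 41.7% in ERRα 3SA liver. Peaks tied at the limiting score, 9967 in muscle and 3714 in liver, leave the ratio open to which of them are kept. With a score of at least 100, the ratios were 2.42 and 1.80 and the ERRE share 15.7%, 16.4%, 25.9% and 21.1%. The share of the list was 7.0%, 7.73% and 7.27% in the first 3 lists. Partners were 72.3%, 27.9%, 82.9% and 46.8% when the partner peak had to reach this score too. With partner peaks of any score they were 81.9%, 62.7%, 89.05% and 83.1%. With a distance over 100 kb the share of the list was 4.41%, 5.07%, 4.61% and 4.14%. With repeats kept, the liver ratio was 1.07, partners 14.4%, 6.41%, 29.1% and 27.2%, the ERRE share 2.11%, 2.72% and 10.3% in the first 3 lists, and the share of the list 17.2%, 19.4%, 17.1% and 13.7%. Partner shares were 10.2%, 4.63%, 24.4% and 19.4% for centres within 100 bp, 26.2%, 11.8%, 45.7% and 37.3% within 1000 bp, and 22.7%, 10.4%, 44.3% and 35.7% for at least 1 shared base. The ERRE share was 5.01%, 6.21%, 17.9% and 20.1% for TNAAGGTCA, 5.05%, 5.86%, 15.7% and 17.3% over the whole interval, and 1.01%, 1.29%, 4.42% and 4.40% in the central 100 bp. Without muscle members that have a liver peak, muscle partners were 11.8% and 5.27% and the ERRE share 1.21% and 2.02%.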
